A study of Homo sapiens with 4 samples.

Results

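The features described here are 3 annotated RNAs that hold between 42.0% and 66.8% of all counts in small RNA libraries of extracellular vesicles. They were chosen by identifier from a count table of 155642 features, for their abundance and their position, so that their levels are a description and not a finding. Of these, 2 are typed as long non-coding RNA and lie on the opposite strand of 18S ribosomal RNA on chromosome 21. One of them, URS0000811E49_9606, has 3 loci, and the other, URS0000812081_9606, has 1. The third, URS0000D59EB8_9606, also typed as long non-coding RNA, lies beside the ribosomal pseudogene RNA5-8SP5 on chromosome 2 and is called the chromosome 2 feature here.

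Small vesicle RNA was extracted with an exoRNeasy kit. The vesicles came from cultured HT29, an established line from a human colon carcinoma whose p53 is mutant, at passages 5 to 15. In the control group (2 libraries) the cells carried a non-targeting sequence. In the other group (2 libraries) they carried p53 shRNA, directed at the transcription factor p53. The knockdown itself was not analysed here. Inserts were selected at 18 to 40 nt, so a count on an annotated RNA longer than that is of a fragment of it. Nothing in the labels ties the libraries to separate cultures, and p-values here reflect just how far these samples scatter, possibly for technical reasons. Fewer vesicles and less RNA per vesicle cannot be told apart in such libraries. Library totals were 938754 to 1099694 counts in the controls and 1940942 to 2611032 with p53 shRNA. The cell line could not be checked through its microRNAs. The 20 hairpin features of colon epithelial microRNAs held 1 or 2 counts in each library, those of blood cells held 2 counts in 1 control library, and those of stromal, liver and muscle microRNAs held 0. Features with no base of their own had 0 counts throughout the table. A mature microRNA annotated inside its hairpin is such a feature, so these counts are no measure of microRNA levels in the vesicles.

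RNA polymerase I transcribes the ribosomal precursor in the nucleolus from tandem gene arrays, and the precursor is cut into 18S, RNA5-8S and 28S RNA. The 18S RNA is the core of the small ribosomal subunit, while RNA5-8S, 28S and the separately transcribed 5S RNA belong to the large subunit. Pseudogenes, degenerate copies of these genes, are scattered over the genome. Fragments of ribosomal RNA are common in RNA from vesicles.

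The sequences of the chromosome 21 features show how far their reads can be told apart. GENCODE 29 lists a transcript of 923 bases at each of the 4 loci, FP671120.3, FP236383.2 and FP236383.3 for the feature with 3 loci and FP671120.4 for the feature with 1. The first 3 were identical, and FP671120.4 differed from them by an edit distance of 4. The stretches that differ are printed on the strand of the 18S RNA, 5′ to 3′ on GRCh38, with capitals for bases that differ from the other feature. The first pair lies at chr21:8211139-8211264 in FP671120.3 and at chr21:8255348-8255472 in FP671120.4, where both have substitutions and FP671120.3 has 1 base more.
FP671120.3: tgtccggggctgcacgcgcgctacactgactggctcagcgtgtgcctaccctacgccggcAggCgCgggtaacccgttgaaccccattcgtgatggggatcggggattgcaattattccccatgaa
FP671120.4: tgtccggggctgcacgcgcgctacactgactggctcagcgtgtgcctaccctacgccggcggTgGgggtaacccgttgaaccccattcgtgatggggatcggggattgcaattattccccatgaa
In the second pair, at chr21:8211003-8211123 and chr21:8255211-8255331, FP671120.4 has 1 more C in a run of C.
FP671120.3: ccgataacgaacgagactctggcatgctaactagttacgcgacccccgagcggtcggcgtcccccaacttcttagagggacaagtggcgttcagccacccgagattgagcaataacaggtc
FP671120.4: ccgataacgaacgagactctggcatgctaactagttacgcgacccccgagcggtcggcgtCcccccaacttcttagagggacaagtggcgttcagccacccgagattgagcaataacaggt
The end of the counted window nearest to the start of the 18S gene lies within the run that all 4 loci share, and it is shown as an example of reads that cannot be placed, from chr21:8210384-8210533.
All 4 loci: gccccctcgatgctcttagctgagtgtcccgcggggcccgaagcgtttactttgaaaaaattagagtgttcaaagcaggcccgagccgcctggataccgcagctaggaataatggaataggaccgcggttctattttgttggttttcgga
The longest run identical in both features had 679 bases. Of the 906 words of 18 bases in FP671120.4, 96.1% also occurred in FP671120.3, and of the 884 words of 40 bases, 91.1%. Other transcripts of GENCODE 29 were searched for words of 18 bases of either feature, on either strand. The processed pseudogene AC010970.1 held 144 such words, and 5 other genes held 1 each. Genome sequence outside these transcripts was not searched, so this is no count of copies in the genome. Most inserts of the selected sizes thus have the same letters in either feature, and the split of counts between them is uncertain.

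The features do not cover the whole of 18S. Each of RNA18SN1, RNA18SN2 and RNA18SN3, functional 18S genes of 1869 bases in RefSeq, held 1 interval of the feature with 3 loci, from base 754 to base 1676. These are 49.4% of the gene, and no feature covered the other 946 bases. The 3 intervals lie at 8210384 to 8211306, 8393419 to 8394341 and 8437629 to 8438551 on chromosome 21 (GRCh38), on the minus strand. The feature with 1 locus (8254592 to 8255514, minus strand) does not lie in one of these genes but in RNA18SP5, which RefSeq lists as an 18S pseudogene of 1863 bases. The annotation gave 2 further loci of the feature with 3 loci that had no chromosome and were not in its row of counts.

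The chromosome 2 feature also lies on 18S sequence. Its start is 1248 bases from RNA5-8SP5 (132253154 to 132253305), but its first interval (132254554 to 132255221, 668 bases) and its second (132255304 to 132255691, 388 bases) lie wholly within LOC110467533, an 18S pseudogene in RefSeq (132254347 to 132256195). The third interval (132280549 to 132280556) has 8 bases within the 28S pseudogene RNA28SP. The second interval lies entirely within other features. Features with no base of their own had 0 counts throughout the table (0 of 66527) with strand ignored, so reads of 18S and of the opposite strand cannot be told apart, and the counts of the chromosome 2 feature can come from 676 of its 1064 bases, nearly all in the first interval. RefSeq places 10 genes or pseudogenes of 18S on chromosomes 1 to 22, and 5 of them overlapped a feature. These 5 are the loci of the 3 features described here.

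**Figure D1:**
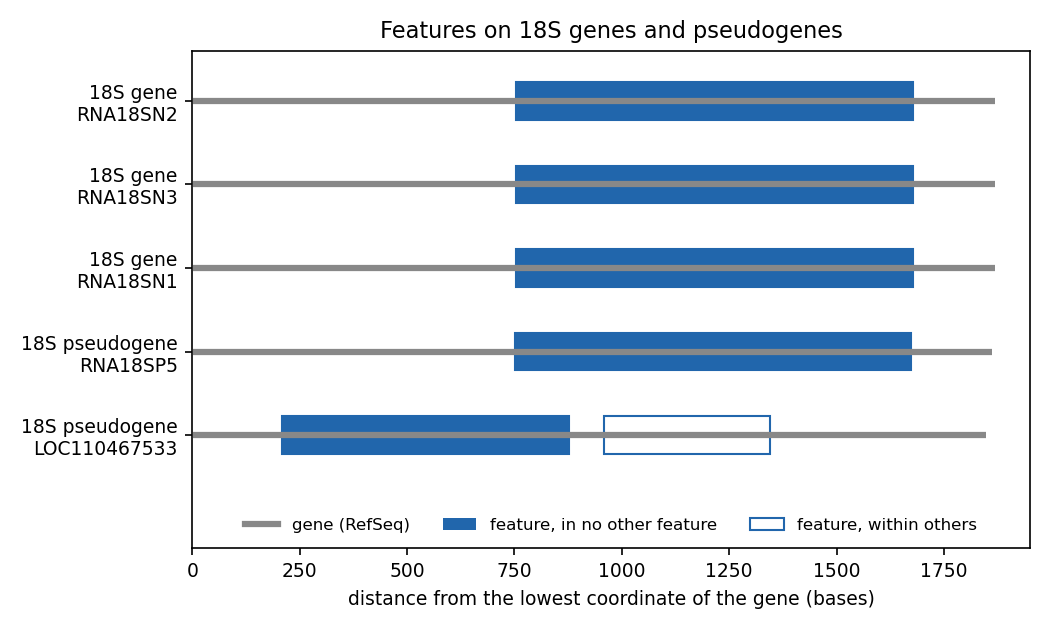
Position of the 3 features on the 18S genes and pseudogenes they lie in, as distance in bases from the lowest coordinate of each gene, with no regard to strand. Grey lines are RefSeq genes, filled boxes are intervals in no other feature, and the open box is the interval of 388 bases that lies within other features. The interval of 8 bases in RNA28SP is not drawn. The chromosome 21 intervals cover 923 bases each.

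The 18S feature with 3 loci was the most abundant feature of every library. It had 394942 and 341885 counts in control replicates 1 and 2 and 723342 and 844265 counts in p53 shRNA replicates 1 and 2. As shares of all counts these were 35.9% and 36.4% in control libraries, against 27.7% and 43.5% in p53 shRNA libraries. The controls lay close together, and the p53 shRNA libraries lay on either side of them. The group means were 36.2% ± 0.357 and 35.6% ± 11.2 (SD, n = 2), a difference far smaller than the spread with p53 shRNA (two-sided exact permutation p = 1.0, where 2 libraries against 2 cannot give less than 0.333).

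The 18S feature with 1 locus had 132279 and 113699 counts in control libraries, against 240326 and 281656 counts in p53 shRNA libraries. Its share was 12.0% and 12.1% in control libraries, against 9.20% and 14.5% in p53 shRNA libraries. The order of the libraries was thus that of the feature with 3 loci. It ranked 2nd in control replicate 1 and p53 shRNA replicate 2 and 3rd in the other libraries. The group means, 12.1% ± 0.0587 and 11.9% ± 3.75 (SD, n = 2), again differed by less than the spread (two-sided exact permutation p = 1.0).

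The feature on chromosome 2 had 69146 and 66914 counts in control libraries, against 133866 and 170655 counts in p53 shRNA libraries. Of all counts it held 6.29% and 7.13% in control libraries, against 5.13% and 8.79% in p53 shRNA libraries. It ranked between 3rd and 5th among all features of a library. The controls lay between the p53 shRNA libraries here too. The group means were 6.71% ± 0.594 and 6.96% ± 2.59 (SD, n = 2; two-sided exact permutation p = 1.0). The 95% Wilson interval of the widest share, that of the feature with 3 loci in control replicate 2, ran from 36.32% to 36.52%. Such intervals cover counting error only and are far narrower than the spread between the p53 shRNA libraries.

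**Figure D2:**
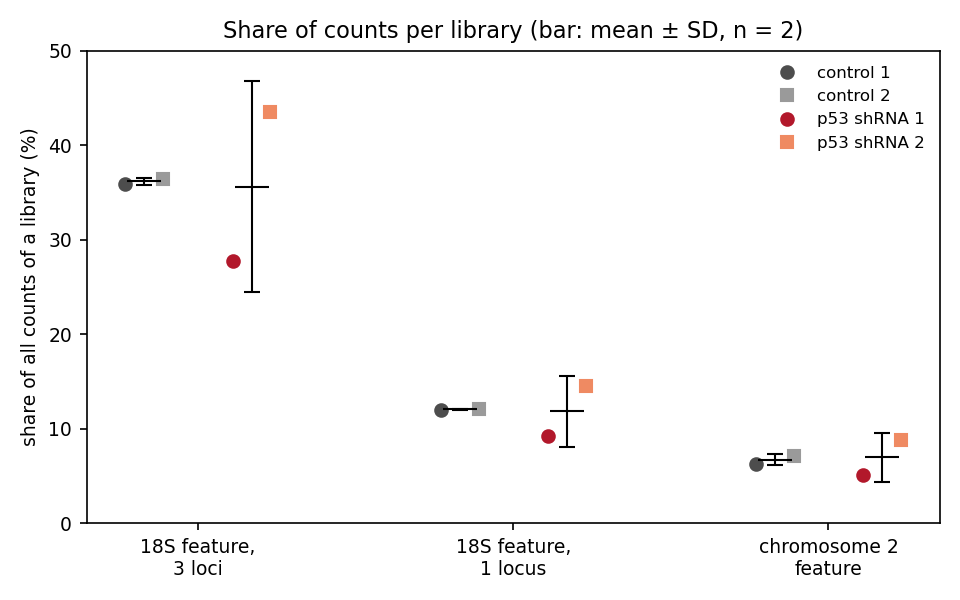
Share of all counts of a library (%) at each of the 3 features, with 1 point per library and the mean ± SD of each group (n = 2). The p53 shRNA libraries lie on either side of the controls for each feature, from 27.7% to 43.5% for the feature with 3 loci.

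The p53 shRNA library with the lower 18S shares had the higher share of 5S RNA. Shares of all counts are tied, so a high share of one feature lowers the others. The 2 features over 5S genes together held 9.999% and 6.64% of control counts, and 25.04% and 4.26% of counts in p53 shRNA replicates 1 and 2. Outside these, the 18S features together held 53.3% and 52.0% of control counts and 49.2% and 60.6% of p53 shRNA counts, so that the highest value was 1.23 times the lowest, against 1.57 times over all counts. The chromosome 2 feature then held 6.99% and 7.63% in control libraries, against 6.84% and 9.18% in p53 shRNA libraries. In 5S and 18S features together the groups no longer overlapped, with 57.9% and 55.2% of counts in control and 61.9% and 62.3% in p53 shRNA libraries (two-sided exact permutation p = 0.333). Shares of all counts did not overlap in 45.9% of the features tested. Features outside ribosomal genes and the 3 described here held 23.06% to 25.44% of every library. Per 100 counts on those features, the spread was wider than over all counts. The highest value was then 1.73 times the lowest for the feature with 3 loci, against 1.57 over all counts. It was 1.74 against 1.58 for the feature with 1 locus, and 1.89 against 1.715 for the chromosome 2 feature. The groups still overlapped for each of the 3 alone, and the part of 5S in their spread was not tested. The sums with 5S and the denominator without 5S were chosen after the values were seen.

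In the test across all features, the normalized levels (CPM, counts relative to a library size that is scaled with TMM, edgeR's trimmed mean of M-values) of the feature with 3 loci were 582558 and 338639 in control libraries, against 258425 and 362029 in p53 shRNA libraries. These differ from the shares because TMM gave control replicate 1 a factor of 0.637, against 1.11 to 1.25 in the other 3 libraries. The log2 change was −0.57 (SE 0.46) with an adjusted p of 0.766 in edgeR's quasi-likelihood test. The feature with 1 locus gave the same change (−0.57, SE 0.47, edgeR adjusted p = 0.796). The chromosome 2 feature had 84136 ± 25254 CPM in control and 60502 ± 17927 in p53 shRNA libraries (SD, n = 2), a log2 change of −0.48 (SE 0.44, edgeR adjusted p = 0.848). In all, 0 of the 3 were called, as were 0.0% of the 2780 features tested. At an unadjusted p under 0.05 the count was also 0 of 3, where 12.2% of all features passed and 7.81% passed as lower with p53 shRNA. The DESeq2 Wald test, which called 1.33% of features, and limma voom called 0 of 3. All 3 changes were below 0, as were 48.6% of all features tested. The groups of CPM overlapped for each of the 3, while 41.5% of the features tested had groups that did not overlap.

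The sign of these changes rested on the scaling. With library totals in place of TMM the log2 change was −0.01 for both 18S features and 0.065 for the chromosome 2 feature, while the median over all features went from 0.05 to 0.49. With no filter on low counts all 3 changes were positive, at 0.30, 0.30 and 0.38, and the median over all features was 1.38. The 3 features lay below the median in each of these fits, but none of them passed the test. Without the filter, the median is over 46090 features, most of them with few counts. More features had a count in the p53 shRNA libraries (34078 and 28314) than in the controls (19931 and 18575), which had lower totals. The place of the 3 features below the median is thus a description and not a decrease.

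**Figure D3:**
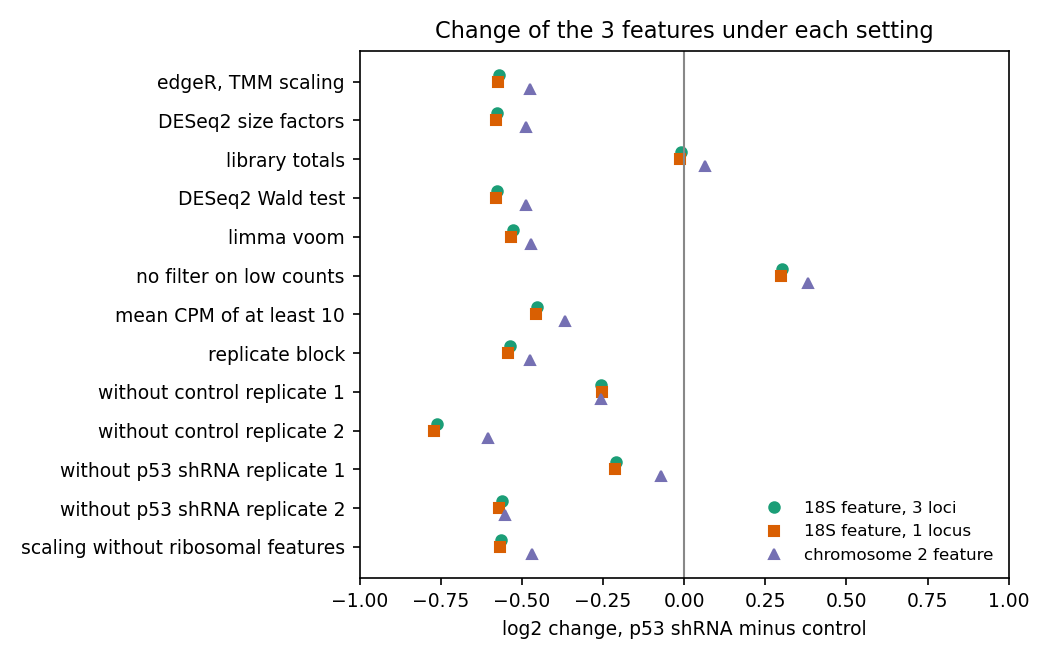
Log2 change of the 3 features, p53 shRNA minus control, under each setting. Symbols are fitted values, 1 per feature, and the vertical line marks no change. Most lie between −0.77 and −0.07, the fit on library totals lies near 0, and the fit with no filter on low counts lies above it.

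Counts per locus hardly differed between the 18S features. The feature with 1 locus had 1.005 and 0.998 times the counts per locus of the feature with 3 loci in control libraries, against 0.997 and 1.001 times in p53 shRNA libraries. Its share of the counts on both features was 25.09% (95% Wilson interval 24.97 to 25.21) and 24.96% (24.83 to 25.08) in control replicates 1 and 2. It was 24.94% (24.85 to 25.03) and 25.02% (24.94 to 25.1) in p53 shRNA replicates 1 and 2. Each interval held 25%, the value for equal counts at the 4 loci. The counts placed on the pseudogene RNA18SP5 and on the 18S genes thus differed by no more than counting error in each library. The split between near-identical loci is uncertain as above. Most inserts have the same letters at these loci, so this equal split cannot compare RNA of the pseudogene with that of the genes. Control and p53 shRNA ratios overlapped (exact permutation p = 0.667, two-sided).

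In contrast, the chromosome 2 feature kept a less exact ratio to 18S. It had 13.1% and 14.7% of the counts of both 18S features in control libraries, against 13.9% and 15.2% in p53 shRNA libraries. The means were 13.9% ± 1.11 and 14.5% ± 0.895 (SD, n = 2), with overlap between them (exact permutation p = 0.667, two-sided). As a part of the counts on all 3 features it held 11.6% (95% Wilson interval 11.5 to 11.7), 12.8% (12.7 to 12.9), 12.2% (12.1 to 12.3) and 13.2% (13.1 to 13.2) in the same order of libraries. No 2 of these intervals overlapped, so this ratio varied between libraries by more than counting error, within each group as well.

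**Figure D4:**
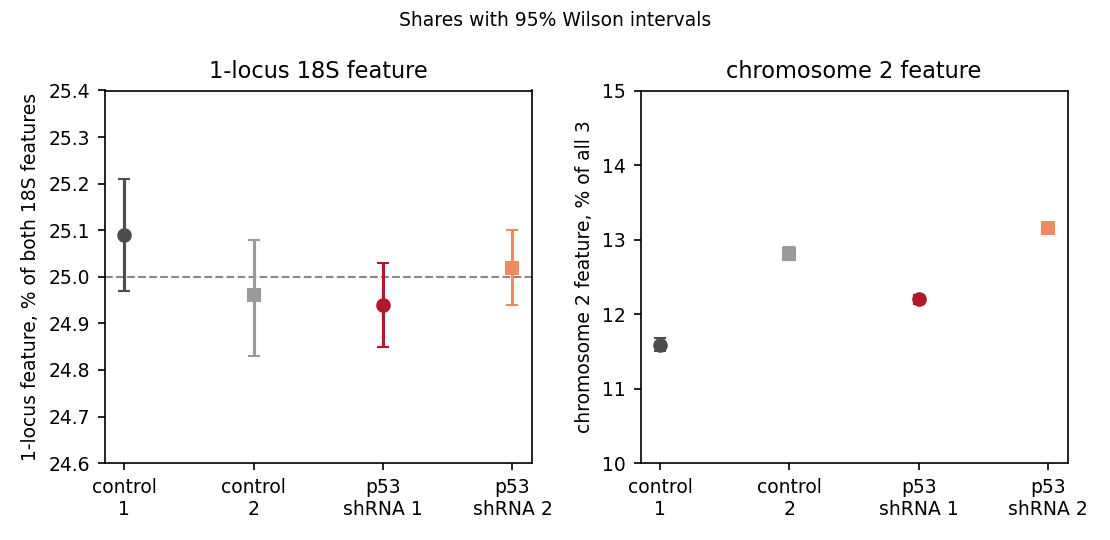
Share of the feature with 1 locus in the counts of both 18S features (left, %) and of the chromosome 2 feature in the counts of all 3 (right, %), with 95% Wilson intervals, 1 point per library, on axes that do not start at 0. On the left each interval holds 25%, the dashed line, and on the right the values run from 11.6% to 13.2% without overlap of their intervals.

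Per base, the chromosome 2 feature came close to 18S where the 18S counts were divided by the bases of all 4 loci. The loci are near-identical, so these bases hold the same 18S stretch at each locus. Per base of a single stretch, the 18S density would be higher. On bases that lie in 1 feature only, called own bases, the feature with 1 locus had 130.3 and 131.2 CPM per base, unscaled, in control libraries, against 99.72 and 157.2 in p53 shRNA libraries. The chromosome 2 feature had 93.0 and 105.4 in control libraries, against 75.8 and 130.1 in p53 shRNA libraries. Its density was 0.716, 0.802, 0.759 and 0.828 times that of both 18S features in control replicates 1 and 2 and p53 shRNA replicates 1 and 2. Another feature on the same pseudogene, URS00008BD340_9606, whose 148 own bases all lie in LOC110467533, had only 0.602 and 0.489 CPM per base in control libraries, against 0.598 and 2.84 in p53 shRNA libraries. By this measure the chromosome 2 feature was 154.5 and 215.4 times as dense in control libraries, against 126.9 and 45.8 times in p53 shRNA libraries. URS0000D5BB06_9606 has 273 bases in the same pseudogene, but its 364 own bases lie partly elsewhere. It had 2.41 and 1.225 raw counts per own base in control libraries, against 10.73 and 4.11 in p53 shRNA libraries. The chromosome 2 feature had 102.3 and 98.99 raw counts per own base in control libraries, against 198.0 and 252.4 in p53 shRNA libraries. Counts per own base thus differed widely between these features. The counts give no positions of reads, and 8 own bases of the chromosome 2 feature lie in RNA28SP. How counts lie along the pseudogene was therefore not seen. The sequence of the chromosome 2 locus was not used here, so it was not compared with the sequences printed above.

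**Figure D5:**
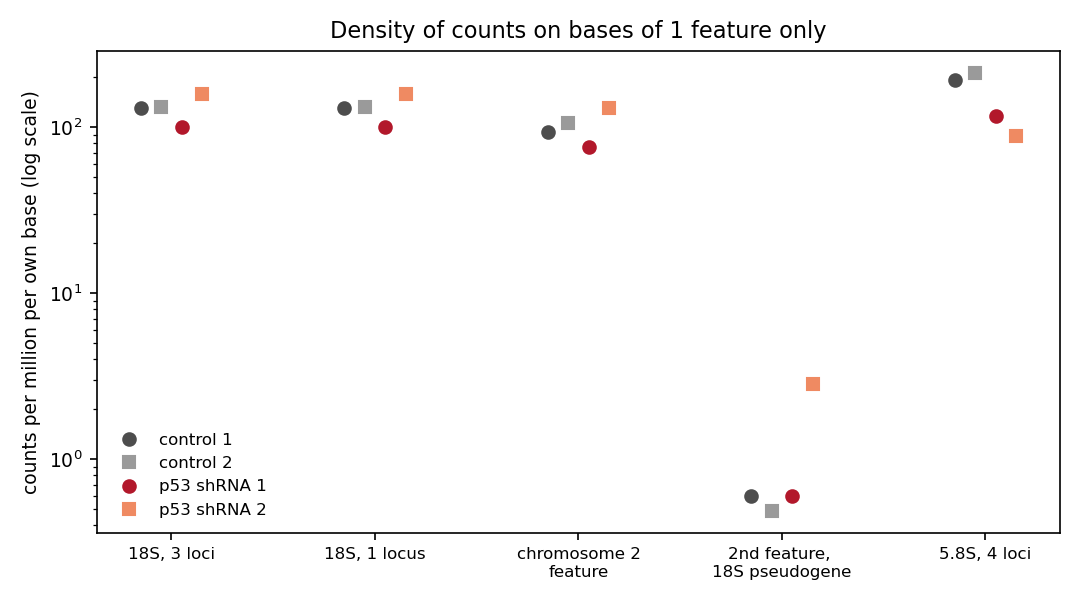
CPM, without TMM scaling, per base that lies in 1 feature only (log scale), with 1 point per library and the RNA5-8SN2 feature with 4 loci at the right. The 3 features lie from 75.8 to 157.2, and a 2nd feature on the chromosome 2 pseudogene lies between 0.489 and 2.84. For features with several loci, the bases of all loci are counted.

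RNA5-8S is cut from the same precursor as 18S, and its feature on RNA5-8SN2, URS00006CE1FB_9606, has 4 loci on chromosome 21. The ratio of counts on both 18S features to this feature was 4.09 and 3.73 in control libraries, against 5.16 and 10.75 in p53 shRNA libraries. Both p53 shRNA libraries lay above both controls, and p53 shRNA replicate 2 stood far above the others. The means were 3.91 ± 0.253 and 7.95 ± 3.95 (SD, n = 2; two-sided exact permutation p = 0.333, the smallest that 2 against 2 allows). The RNA5-8SN2 feature held 11.7% and 13.0% of control counts and 7.15% and 5.40% with p53 shRNA. These shares did not overlap, as was so for 45.9% of the features tested. Both 18S features together held 47.9% and 48.5% of control counts and 36.9% and 58.0% with p53 shRNA, so their groups overlapped. The part of each in the separation of the ratio was not tested. This ratio was chosen after its values were seen.

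Of the other ribosomal RNA features, 24 in the table, 13 were tested. In the fits without a replicate term, 0 were called in either direction by edgeR, DESeq2 or voom. Of all features tested, edgeR and voom called 0 and DESeq2 called 1.33%. At an unadjusted p under 0.05 in edgeR's test, 1 of the 13 was higher and 0 were lower, where 4.35% of all features tested were higher, so this count says nothing particular of the list. Their median log2 change was 0.31, against 0.05 for all features, but its sign rested on single libraries and on the tool. It was below 0, at −0.13, when control replicate 2 was left out, and was 0.98 when control replicate 1 was. Leaving out p53 shRNA replicate 1 gave 0.34 and leaving out replicate 2 of that group gave 0.085. In limma voom the median was −0.09. The RNA5-8SN2 feature had 155500 ± 48940 CPM in control and 55820 ± 15420 in p53 shRNA libraries (SD, n = 2), a log2 change of −1.48 (SE 0.43, edgeR adjusted p = 0.431). The 5S feature with 16 loci had 103758 and 58811 counts in control libraries, against 615482 and 78147 in p53 shRNA libraries (log2 change 0.26, SE 1.52, edgeR adjusted p = 0.963), and p53 shRNA replicate 1 stood far above the other libraries. RNA5S9, another 5S gene, had 6195 and 3512 counts in control libraries, against 38219 and 4580 in p53 shRNA libraries. The last 3 of the 6 most abundant of these features were small. The feature in RNA28SP on chromosome 2 held 0.0747% and 0.120% of control and 0.110% and 0.130% of p53 shRNA counts, and the features over RNA5-8S copies on chromosomes 20 and 22 held at most 0.107% of a library.

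RNAs that act in cutting or folding the ribosomal precursor could hardly be measured. Of 33 features over U3, U14, U17, U8, U13, U22, SNORA62, SNORA63 and RMRP genes, 23 had no base of their own, and 3 had a count and were tested. Of these 3, 0 were called by edgeR, DESeq2 or voom, where edgeR and voom called 0 and DESeq2 1.33% of all features tested. At an unadjusted p under 0.05 in edgeR's test the count was also 0 of 3, against 12.2% of all features. These counts say nothing particular of the list. SNORD14D, a U14 snoRNA needed for cutting out 18S, had 4589 and 533 counts in control libraries, against 6108 and 3278 in p53 shRNA libraries. SNORD14C, a copy of U14, had 1930 and 288 counts in control libraries, against 5648 and 2522 in p53 shRNA libraries, and control replicate 2 was lowest in both. Both are close copies that lie within the gene HSPA8, so their split is uncertain. Library totals were higher with p53 shRNA. The log2 change was −1.02 for SNORD14D (edgeR adjusted p = 0.798) and −0.015 for SNORD14C (edgeR adjusted p = 0.998). SNORD13, the U13 snoRNA, which guides acetylation of 18S, had 13 and 16 counts in control libraries, against 10 and 20 in p53 shRNA libraries, at the low end of what these libraries can measure (log2 change −1.52, edgeR adjusted p = 0.529). As shares of all counts, SNORD13 held 0.00118% and 0.00170% in control libraries, against 0.00038% and 0.00103% in p53 shRNA libraries. These shares did not overlap, as was so for 45.9% of the features tested. All 3 held far fewer counts than the 18S features in every library.

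The features most like these 3 were each other. Likeness was measured as the SD over the 4 libraries of the log2 ratio of counts, among the 102 features with at least 100 counts in every library. The SD was 0.0052 between the 18S features and 0.0913 between the feature with 3 loci and the chromosome 2 feature. Most inserts have the same letters in either 18S feature, so the SD between them cannot be read as likeness of separate RNAs. The sequence of the chromosome 2 feature was not compared. Outside the 3, the nearest to the feature with 3 loci were SCARNA7, a small Cajal body RNA (SD 0.300), a long non-coding RNA feature at 127165926 to 127166443 on chromosome 12 (0.317) and RN7SL396P, one of many near-identical copies of the signal recognition particle RNA, whose counts are uncertain for that reason (0.355). The same 3 came next for the feature with 1 locus. For the chromosome 2 feature they were RN7SL396P (0.337), SCARNA7 (0.356) and the feature in RNA28SP (0.359). SCARNA7 had 293 and 155 counts in control libraries, against 414 and 541 in p53 shRNA libraries, at most 0.0742% of the feature with 3 loci. With 4 libraries, this order is a description.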

How the data were processed

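Small RNA of vesicles was sequenced in 4 libraries, 2 per group. Values are raw counts per annotated feature, as deposited, without normalization, and features carry RNAcentral names. The build was GRCh38, and Subread 1.6.3, BWA 0.7.17 and bcl2fastq 2.19 are named as tools, per the submitters' processing notes. The counting of reads with several matches, and its use of strand, are not given in the sources used here.

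The members and lists were chosen with earlier results of these data known. Positions were compared with GENCODE 29 and with RefSeq genes of GRCh38.p14 by bedtools 2.31.1. Of 502 ribosomal RefSeq genes with the same symbol in GENCODE, 461 had the same coordinates. A feature was placed with a gene that covered at least 50% of it. Sequences were GENCODE transcripts, compared by edit distance.

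All features past edgeR's filter on low counts (2780) entered a quasi-likelihood fit (edgeR 4.0.16, R 4.3.3) with TMM scaling. Adjusted p-values are Benjamini-Hochberg, with a threshold of 0.05. DESeq2 1.42.0 and limma 3.58.1 were alternatives. The SE is that of the difference in mean log2 CPM (prior count 2). On simulated data for this comparison (2780 features), the fit found 86.8% of 4-fold changes and 91.2% of 16-fold changes where the dispersion was 0.01. At the fitted dispersions it found 0.653% and 17.6%, so 0 calls leave room for large differences. Named were the 3 features, for each the 3 features with the most constant count ratio to it, the 6 most abundant other ribosomal features and the 4 most abundant processing RNAs, 3 of which had counts.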

Additional observations from a re-analysis of the deposited data

How the results depend on the processing

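The log2 changes of the 3 features passed the threshold under none of the 12 alternatives, with adjusted p between 0.470 and 0.990. They turned positive with no filter on low counts (0.302 for the 18S feature with 3 loci, 0.298 for that with 1 locus and 0.381 for the chromosome 2 feature), and that of the chromosome 2 feature also on library totals (0.065). With a library left out they ran from −0.762 to −0.211, from −0.770 to −0.212 and from −0.603 to −0.071, and were nearest 0 without p53 shRNA replicate 1 for both 18S features and the chromosome 2 feature. Deviations of same-numbered libraries correlated (r = 0.395), but the labels do not tie a number to a batch. With the replicate number as a block they were −0.54, −0.54 and −0.47 and were not called, while 103 features of the table were called, 1 of them ribosomal, the RNA5-8SN2 feature (log2 change −1.47, adjusted p = 0.0273, against 0.431 without the block). The median over the 13 ribosomal features tested was then −0.12. The DESeq2 Wald test called 37 features of the table. The log2 ratio of group shares had either sign when a library was left out, from −0.385 to 0.266, from −0.391 to 0.266 and from −0.385 to 0.393. The ratio of the chromosome 2 feature to 18S was 0.139 to 0.146 with a library left out. It was 0.776 per own base, where the 18S counts are divided by the bases of all 4 near-identical loci. The ratio of counts per locus stayed between 0.998 and 1.001. With 2 libraries a group, the spread between libraries limits these results more than depth.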

Other observations

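Near the third interval of the chromosome 2 feature, URS00008C1ED1_9606 (132278655 to 132280071), a feature that overlaps the 28S pseudogene RNA28SP, held 0.0898% and 0.194% of control counts. It held 0.172% and 0.335% in p53 shRNA libraries, so the groups overlapped. No feature lies on RNA28SN1, RNA28SN2 or RNA28SN3, the functional 28S genes on chromosome 21, so 28S could not be set beside 18S.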
